A study of Drosophila melanogaster with 12 samples.

Results

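The effect of Sin3A dsRNA in cells that also received Sam-S dsRNA was read from RNA-seq of Drosophila S2 cells. Samples labelled double knockdown were set against the SAM-S knockdown samples. Gene rows were included when the authors' test had run in both tables, which held for 7921 of the 14540 joined rows. S2 is a cultured line with features of hemocytes, the macrophage-like blood cells of the fly, and its genotype is labelled wild type. The study treated S2 cells for 4 days with dsRNA against GFP as a control, against Sin3A, against Sam-S, or against both genes. Each of the 4 groups had 3 samples of the same line, called biological replicates in the design text, and Sam-S dsRNA was common to both groups compared here. The authors combined the replicates of a group, so each gene has 1 pooled FPKM (fragments per transcript length and sequencing depth) per group, with no spread between samples.

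Because there is 1 value per group, no difference between the groups could be tested. A row is described as past the threshold where the ratio of double knockdown to SAM-S knockdown was at least 2-fold, that is, a log2 ratio of at least 1 in size. An approximate 95% interval is given where the authors' deposited statistic allowed a standard error. It counts the GFP error in both tables, which makes it wider. The statistic was multiplied by 1.74 (SAM-S) or 1.73 (double) to track the deposited p-value, which makes it narrower. The widths of all intervals below depend on that step. It cannot be told whether an interval covers the spread between samples.

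SIN3 is the scaffold of a large complex that carries the histone deacetylase Rpd3 and, in one form, the histone H3 lysine demethylase Lid. SAM-S joins methionine to ATP to make S-adenosylmethionine, the methyl donor for histones, DNA, RNA and lipids. The comparison asks what SIN3 dsRNA does together with Sam-S dsRNA, and whether the genes that answer are those that answer without Sam-S dsRNA. RNA-seq does not measure S-adenosylmethionine, so its supply in these cells was not tested.

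The target genes were examined first. Sam-S (dm3, chromosome 2L, 106903 to 114432) stood at 242 FPKM after GFP dsRNA, 62.0 after SAM-S knockdown, 484 in the samples labelled SIN3 knockdown and 91.2 in the samples labelled double knockdown. Sam-S mRNA was thus below the control in both groups compared, but higher in the double knockdown by 0.55 on the log2 scale (interval 0.03 to 1.07). Sin3A (2R, 8459617 to 8480397) stood at 68.1, 71.2, 61.7 and 64.7 FPKM in the same order, a log2 ratio of double to SAM-S knockdown of -0.15 (interval -0.76 to 0.46). These Sin3A values thus gave no check of a knockdown in the double group, so directions below depend on how the samples were labelled. The tables do not tell reads of an mRNA from reads of the dsRNA added against it, and whether such reads are in the Sin3A and Sam-S values was not tested. The part that the unequal Sam-S level plays in any result below was not tested.

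All 15 hemocyte markers were measured, with a summed level of 27851 FPKM after GFP dsRNA, 24945 after SAM-S knockdown and 12194 in the double knockdown. Most of that sum is Nplp2. None of 5 muscle markers passed into the comparison, and their highest level in the 3 groups was 0.53 FPKM. The highest neuron marker was elav at 3.23, 3.15 and 4.33 FPKM in the same groups. The highest fat body marker was Rfabg at 2.14, 1.63 and 1.25 FPKM. Of the germline markers, aub, a piRNA pathway Argonaute, stood at 37.1, 34.0 and 27.6 FPKM, while the other 4 were below 1 FPKM.

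Across all rows, more were past the threshold in the lower than in the higher direction. Of 7901 rows above 0 FPKM in both groups, 274 (3.47%) were at least 2-fold lower and 71 (0.899%) at least 2-fold higher in the double knockdown. At 1.5-fold, 757 rows (9.58%) were lower and 447 (5.66%) higher. The median log2 ratio was -0.0029; FPKM are scaled between libraries, so this value does not bear on a shift of all genes. Low genes were over-represented among the lower rows, by FPKM in the higher of the 2 groups. Of rows under 1 FPKM there, 13.2% were at least 2-fold lower, against 0.97% of rows between 20 and 100 FPKM. Of the rows past the threshold, 136 of 274 and 46 of 71 reached 5 FPKM in the higher group. The interval lay wholly on 1 side of 0 for 148 (1.95%) of the lower rows and 24 (0.317%) of the higher rows, of 7578 with an interval. In the authors' deposited table of double knockdown against GFP, 777 of the 7901 rows had a q under 0.05 in either direction. Among them were 142 of the 274 lower rows and 21 of the 71 higher rows. Of all rows tested there, 6.14% had such a q and were lower than GFP, and 3.48% were higher. Both ratios use the double knockdown value, so they are not independent. At the threshold, Fas1 was just inside, from 9.50 FPKM after SAM-S knockdown to 4.78 in the double knockdown, and CG8398 just outside, from 17.1 to 8.60 FPKM. In the higher direction, the row of Tob and mir-4958 was just inside, from 6.66 to 13.4 FPKM, and CG31633 just outside, from 6.19 to 12.4 FPKM.

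The lowest list median was that of heat shock genes. Of 20 measured rows in a list of heat shock and chaperone genes, 12 were at least 2-fold lower, where 3.47% of all rows were, and the list median was -1.78. These genes encode proteins that bind unfolded polypeptides, and the heat shock factor Hsf drives the inducible ones. All 12 lower rows were genes of the inducible classes, the small heat shock proteins, Hsp68 and the Hsp70 copies.

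The small heat shock protein gene Hsp26 (3L, 9369518 to 9370475) stood at 671 FPKM after GFP dsRNA, 457 after SAM-S knockdown, 315 in the samples labelled SIN3 knockdown and 107 in the double knockdown. The double knockdown was the lowest of the 4 groups, at a log2 ratio to SAM-S knockdown of -2.10 (interval -2.61 to -1.60). Hsp27 (3L, 9377163 to 9378382) followed the same order of groups, at 448, 268, 208 and 67.3 FPKM, with a ratio of -1.999 (interval -2.52 to -1.48). Hsp23 (3L, 9374982 to 9375865) stood at 429, 257, 167 and 74.6 FPKM, a ratio of -1.79 (interval -2.30 to -1.29). The merged row of Hsp22 and Hsp67Bb stood at 278, 182, 139 and 53.7 FPKM, a ratio of -1.77 (interval -2.28 to -1.27). Hsp67Bc and Hsp67Ba, which lie in the same cluster, were at -1.80 and -1.70, but Hsp67Ba was below 1 FPKM in every group.

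Among the larger chaperones, Hsp68 (3R, 19880113 to 19883032) stood at 348, 245, 167 and 57.4 FPKM in GFP, SAM-S, SIN3 and double knockdown, a log2 ratio of double to SAM-S knockdown of -2.10 (interval -2.68 to -1.53). Hsp70Bb (3R, 8331515 to 8334105) stood at 70.4, 52.8, 36.0 and 12.5 FPKM, a ratio of -2.08 (interval -2.67 to -1.50). The double knockdown was again the lowest group for both genes. Hsp70Ba had the lowest ratio, -2.76, from 10.4 to 1.54 FPKM, among rows outside the small RNA genes with at least 5 FPKM in the higher and 0.5 in the lower group. Hsp70Bc (-2.34), Hsp70Bbb (-1.84) and the row of Hsp70Aa and Hsp70Ab (-1.88) shared the direction. The Hsp70 copies are nearly identical, so reads may be split among them in ways the tables do not show.

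The constitutive chaperones and the regulator stayed near equality. Hsc70-4, the main constitutive Hsp70 relative, stood at 2067 FPKM after SAM-S knockdown and 2149 in the double knockdown, a log2 ratio of 0.05 (interval -0.66 to 0.75). Hsp60, a mitochondrial chaperonin, was at -0.02 (interval -0.51 to 0.47), and Hsc70-5, the mitochondrial Hsp70, at 0.04 (interval -0.47 to 0.54). Hsf itself stood at 57.6 and 66.3 FPKM, a ratio of 0.19 (interval -0.29 to 0.67). Hsp83, the fly Hsp90, was at -0.41 (interval -1.14 to 0.32), and the co-chaperone genes DnaJ-1 and stv were at -0.94 and -0.46.

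**Figure D1:**
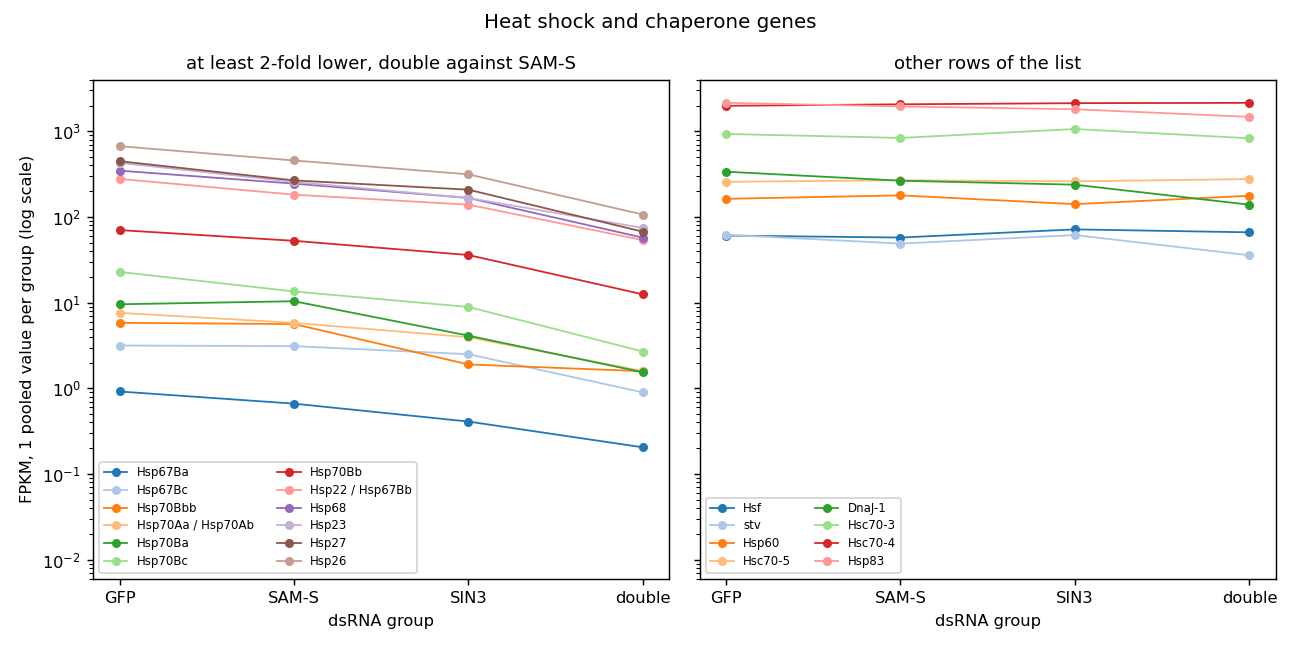
FPKM (log scale) of the 20 measured heat shock and chaperone rows in each dsRNA group, 1 pooled value per group, with lines joining the values of a row and no order implied among groups. The 12 rows of the left panel are lowest in the double knockdown, with Hsp26 at 671, 457, 315 and 107 FPKM; the 8 rows of the right panel include Hsc70-4, which stands at 2067 and 2149 FPKM after SAM-S and double knockdown.

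Outside the heat shock genes, several of the lowest ratios belonged to genes listed under CG numbers. Symbols of the CG or CR kind made up 52.2% of all rows at least 2-fold lower and 49.2% of all rows. Rows named here were ranked under the same FPKM minimums and without the small RNA genes. Leaving out the small RNA genes was a step chosen after the values were seen. CG33307 (2L, 13835567 to 13898714) stood at 104 FPKM after GFP dsRNA, 121 after SAM-S knockdown, 14.8 in the samples labelled SIN3 knockdown and 24.5 in the double knockdown, a log2 ratio of double to SAM-S knockdown of -2.31. CG4829 (X, 16705732 to 16720527) stood at 44.2, 38.7, 6.59 and 8.43 FPKM, a ratio of -2.21 (interval -2.76 to -1.65). For both genes the groups with SIN3 dsRNA were low and those without it high, and SAM-S knockdown alone stayed near the control. CG4250 and its neighbour CG42566 were at -2.43 and -2.35, CG14527 at -2.18 and CG2444 at -2.09.

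Membrane protein families contributed further low rows. Of 21 measured tetraspanins, small membrane proteins that organise other surface proteins, 8 were at least 2-fold lower, where 3.47% of all rows were, and none higher, with a list median of -0.27. With 1 FPKM added to each value, 3 of them were past 2-fold. Tsp42Eg (2R, 2916416 to 2920738) stood at 25.5, 17.2, 4.09 and 4.53 FPKM in GFP, SAM-S, SIN3 and double knockdown, a ratio of -1.94 (interval -2.72 to -1.16). Tsp96F stood at 7.76 FPKM after SAM-S knockdown and 2.83 in the double knockdown, a ratio of -1.46 (interval -2.16 to -0.77). The most abundant tetraspanin, Tsp42Ee, was near equality at 988 and 1021 FPKM. Among 6 Ly6-domain genes, which encode small anchored surface proteins, 3 were positive and 3 negative, with a list median of -0.03. The 2 at least 2-fold lower, where 3.47% of all rows were, included the merged row of CG31675 and CG9338. It stood at 20.8, 11.1, 4.67 and 2.59 FPKM, a ratio of -2.11 (interval -3.11 to -1.11). The other, bou, was at -1.40 with an interval from -3.18 to 0.39. The positive members crok, cold and crim were at 0.20, 0.31 and 0.59, with intervals that include 0.

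Hemocyte genes were the other list with a strongly negative median, at -0.65, and 13 of 15 markers were negative, where 50.5% of all rows were. Of these 15, 4 were at least 2-fold lower, where 3.47% of all rows were. Pxn, the matrix enzyme peroxidasin (3L, 2600331 to 2630072), stood at 152 FPKM after GFP dsRNA, 147 after SAM-S knockdown, 50.9 in the samples labelled SIN3 knockdown and 58.1 in the double knockdown, a ratio of -1.35 (interval -1.95 to -0.75). The scavenger receptor gene Sr-CI stood at 127, 127, 58.3 and 53.6 FPKM, a ratio of -1.26 (interval -1.76 to -0.76). Nplp2 (3L, 13349634 to 13350323), a neuropeptide-like precursor gene and a very abundant transcript of these cells, stood at 25039, 21859, 10669 and 10156 FPKM, a ratio of -1.11 (interval -1.88 to -0.35). Each of these genes was near the control after SAM-S knockdown and lower in both groups with SIN3 dsRNA. The phagocytosis receptor genes did not move as 1 group: nimC1 was at -1.05, eater at -0.26 (interval -0.76 to 0.23) and crq at 0.18 (interval -0.60 to 0.97). The basement membrane genes vkg and Cg25C, which encode the collagen IV chains, were at -0.65 and -0.32. In a pooled culture, fewer cells of a kind and less RNA per cell cannot be told apart.

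Genes of DNA synthesis and cell division were lower together by small amounts. Of 40 measured DNA replication genes, 35 had negative log2 ratios, where 50.5% of all rows did, with a median of -0.38; none was past 2-fold, and the 4 at least 1.5-fold lower are a share near the 9.58% of all rows. Mcm7, a subunit of the replicative helicase, stood at 65.9 FPKM after GFP dsRNA, 52.6 after SAM-S knockdown, 40.9 in the samples labelled SIN3 knockdown and 31.6 in the double knockdown, a ratio of -0.74 (interval -1.25 to -0.24). RnrL, the large subunit of ribonucleotide reductase, stood at 102, 85.9, 70.8 and 55.1 FPKM, a ratio of -0.65 (interval -1.13 to -0.17). Both genes were lowest in the double knockdown. Of 31 mitosis and cytokinesis genes, 29 were negative with a median of -0.47, and 7 were at least 1.5-fold lower, where 9.58% of all rows were. The mitotic kinase gene polo stood at 118, 107, 76.0 and 67.0 FPKM, a ratio of -0.68 (interval -1.17 to -0.20), and the securin gene pim was at -0.74 (interval -1.41 to -0.07). CycA was an exception at -0.08 (interval -0.56 to 0.40), as was cnn, a centrosome scaffold gene, at 0.23.

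Higher rows were fewer and smaller in ratio. CG15784 (X, 5324713 to 5326494) stood at 67.1 FPKM after GFP dsRNA, 79.5 after SAM-S knockdown, 212 in the samples labelled SIN3 knockdown and 259 in the double knockdown, a log2 ratio of double to SAM-S knockdown of 1.70 (interval 1.17 to 2.22). The carboxylesterase gene alpha-Est3 (3R, 3364694 to 3367349) stood at 4.16, 3.83, 19.5 and 11.7 FPKM, a ratio of 1.60 (interval 0.70 to 2.50). Sras, a CAAX protease that trims prenylated proteins, stood at 35.6, 30.5, 78.7 and 72.8 FPKM, a ratio of 1.25 (interval 0.66 to 1.83). In all 3 genes both groups with SIN3 dsRNA were above both groups without it. CG5377 stood at 15.9 FPKM after SAM-S knockdown and 36.9 in the double knockdown, a ratio of 1.20 (interval 0.51 to 1.90). Among rows outside the small RNA genes that met the FPKM minimums, CG30010 had the highest ratio, 2.19, but its interval ran from -2.55 to 6.92.

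**Figure D2:**
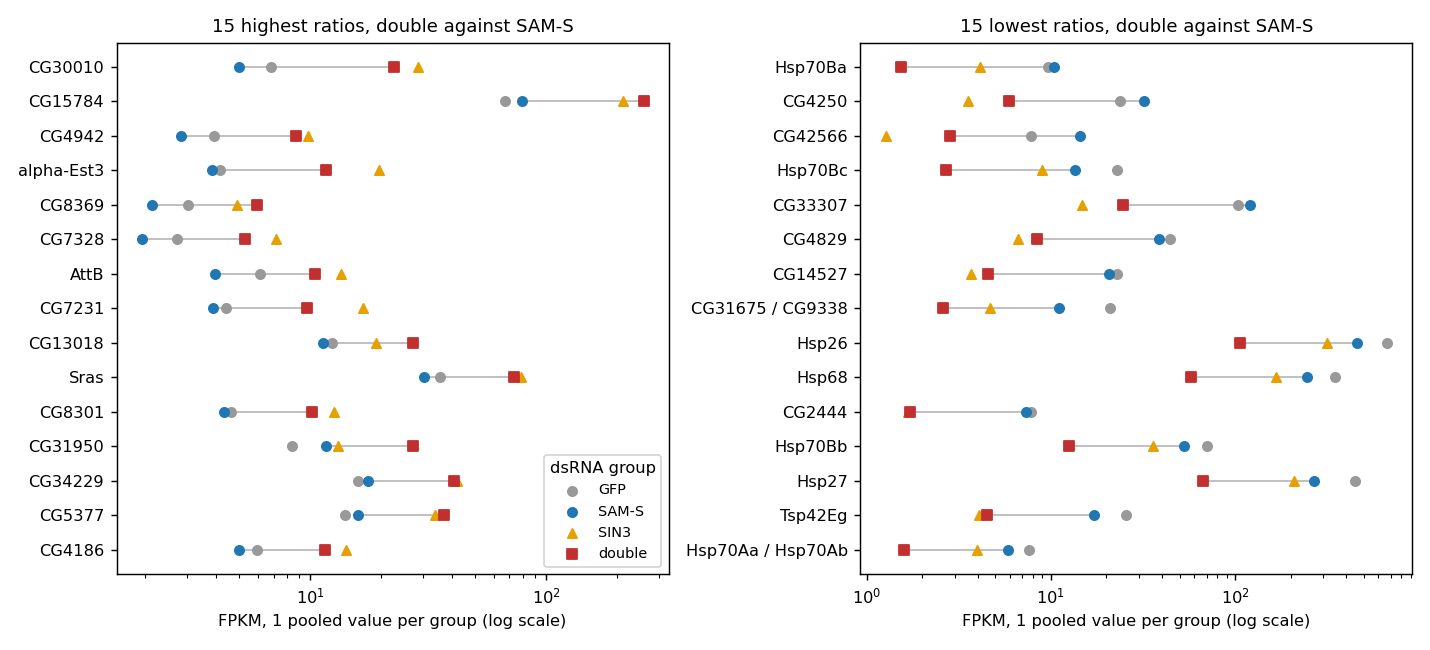
FPKM (log scale) of the 15 rows with the highest (left) and the 15 with the lowest (right) ratio of double to SAM-S knockdown, among rows of at least 5 FPKM in the higher and 0.5 in the lower group and with small RNA rows left out, with 1 point per dsRNA group and a grey line joining SAM-S to double knockdown. In most rows the SIN3 point lies on the side of the double knockdown, as for CG15784 at 212 and 259 FPKM; for Hsp26 the SIN3 point, at 315 FPKM, lies between the SAM-S and double points.

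Antimicrobial peptide genes supplied 4 of the higher rows among 29 measured immune genes, where 0.899% of all rows were at least 2-fold higher. Their products are secreted by hemocytes and fat body after infection. Dro stood at 1.85 FPKM after GFP dsRNA, 1.80 after SAM-S knockdown, 3.58 in the samples labelled SIN3 knockdown and 4.96 in the double knockdown, a ratio of 1.46 (interval 0.19 to 2.72). AttB (2R, 10636728 to 10637670) stood at 6.14, 3.95, 13.6 and 10.5 FPKM, a ratio of 1.40 (interval 0.34 to 2.47). AttA was at 1.13 and AttD at 1.08, both with intervals that include 0, and 2 of the 4 rows stayed past 2-fold with 1 FPKM added to each value. The cecropin gene CecA1 was near equal at 108 and 109 FPKM. The signalling genes Rel, imd and Dif were at 0.37, 0.18 and -0.05, with intervals that include 0.

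Mitochondrial genes were higher by small amounts. Of 73 mitochondrial ribosomal protein genes, 60 had positive log2 ratios, where 49.5% of all rows did, with a median of 0.25; 16 were at least 1.5-fold higher, where 5.66% of all rows were, and 1 was at least 2-fold higher. That gene, mRpL40 (3R, 7233640 to 7234478), stood at 22.7, 25.9, 46.7 and 53.4 FPKM in GFP, SAM-S, SIN3 and double knockdown, a ratio of 1.04 (interval 0.34 to 1.73). mRpL19 stood at 34.8, 38.6, 60.9 and 69.0 FPKM, a ratio of 0.83 (interval 0.25 to 1.41). Respiratory chain and ATP synthase genes were positive in 26 of 35 cases with a median of 0.13, and none was past 1.5-fold. The Rieske protein gene RFeSP was at 0.48 (interval -0.14 to 1.10). Cytoplasmic ribosomal protein genes went the other way, with 70 of 82 negative, where 50.5% of all rows were, and a median of -0.14. The 1 such row past 2-fold, RpL28 merged with snoRNA genes, stood at 2149 FPKM after GFP dsRNA, 8695 after SAM-S knockdown and 3349 in the double knockdown, a ratio of -1.38 (interval -1.81 to -0.96); among single-gene rows none was past 2-fold.

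Proteasome subunit genes were positive in 30 of 31 cases, where 49.5% of all rows were, with a median of 0.14 and the highest at 0.36, and no interval among the named Pros25, Pros35 and Pros28.1 excluded 0. Genes of glycolysis had a median of 0.24, with the rate-controlling enzyme gene Pfk at 32.1 FPKM after SAM-S knockdown and 52.6 in the double knockdown, a ratio of 0.71 (interval 0.20 to 1.21). TCA cycle genes had a median of 0.07 and none past 1.5-fold.

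Methionine and one-carbon genes split in direction. Of 18 measured, none was past 2-fold, 2 were at least 1.5-fold higher and 2 at least 1.5-fold lower, where 5.66% and 9.58% of all rows were. Ahcy13 (X, 15344294 to 15346679), which clears S-adenosylhomocysteine, stood at 155 FPKM after GFP dsRNA, 213 after SAM-S knockdown, 223 in the samples labelled SIN3 knockdown and 343 in the double knockdown, a ratio of 0.68 (interval 0.20 to 1.16). It was highest in the double knockdown. The homocysteine methyltransferase gene CG10623 stood at 11.4, 10.4, 24.3 and 19.4 FPKM, a ratio of 0.89 (interval 0.21 to 1.57). The thymidylate synthase gene Ts stood at 80.6, 71.7, 36.2 and 37.8 FPKM, a ratio of -0.93 (interval -1.47 to -0.39). Cbs, which makes cystathionine, stood at 30.1, 35.1, 16.4 and 21.4 FPKM, a ratio of -0.72 (interval -1.27 to -0.18). Aprt, which salvages adenine, was at 0.96 (interval 0.28 to 1.64), while the purine synthesis gene ade5 was at -0.58 (interval -1.09 to -0.07).

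Of 20 nutrient and stress signalling genes, 1 was at least 2-fold lower, a share near the 3.47% of all rows. Sesn (2R, 19601425 to 19620706), an inhibitor of TORC1 signalling, stood at 26.2 FPKM after GFP dsRNA, 12.9 after SAM-S knockdown, 7.78 in the samples labelled SIN3 knockdown and 4.67 in the double knockdown, a ratio of -1.48 (interval -2.08 to -0.87). The amino acid transporter gene path stood at 45.8, 80.6, 35.2 and 46.9 FPKM, a ratio of -0.79 (interval -1.33 to -0.25), so its level in the double knockdown was close to that of the GFP control. Thor, the translation repressor 4E-BP, stood at 259, 282, 460 and 331 FPKM, a ratio of 0.22 (interval -0.26 to 0.70). The transcription factor gene crc, the fly ATF4, was at -0.03 (interval -0.57 to 0.51).

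Of 15 Notch pathway genes, 3 were at least 2-fold lower, where 3.47% of all rows were. At 1.5-fold, 5 were lower, where 9.58% of all rows were, and 9 were negative, where 50.5% of all rows were. E(spl)mbeta-HLH (3R, 21830768 to 21831745), a transcriptional target of Notch, stood at 7.71 FPKM after GFP dsRNA, 25.6 after SAM-S knockdown, 2.44 in the samples labelled SIN3 knockdown and 10.9 in the double knockdown, a ratio of -1.24 (interval -2.09 to -0.39). The double knockdown thus lay between the SAM-S knockdown and the control. The receptor gene N stood at 7.30, 6.98, 2.97 and 3.39 FPKM, a ratio of -1.05 (interval -1.62 to -0.48), and the ligand gene Ser was at -0.93 (interval -1.61 to -0.26). The DNA-binding factor gene Su(H) was at -0.09 (interval -0.64 to 0.47). With 1 FPKM added to each value, only E(spl)mbeta-HLH of the 3 lower rows remained past 2-fold.

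Detoxification genes were lower in a few members. Of 38 glutathione and antioxidant genes, 4 glutathione transferase genes were at least 2-fold lower, GstD4, GstD7, GstE2 and GstD3, where 3.47% of all rows were; with 1 FPKM added to each value, 2 of them were past 2-fold. GstD3 stood at 134 FPKM after GFP dsRNA, 126 after SAM-S knockdown, 59.7 in the samples labelled SIN3 knockdown and 62.3 in the double knockdown, a ratio of -1.03 (interval -1.56 to -0.50). Keap1, the inhibitor of the antioxidant regulator cnc, was higher at 0.74 (interval 0.17 to 1.30). Of 37 cytochrome P450 genes, 29 were negative, where 50.5% of all rows were, with a median of -0.30. The 2 at least 2-fold lower, Cyp4ac1 (-1.04) and Cyp6a14 (-1.03), are a share near the 3.47% of all rows, and neither was past 2-fold with 1 FPKM added. Of 19 lipid synthesis and activation genes, 11 were positive and 8 negative, with a median of 0.008. The 2 at least 2-fold lower, where 3.47% of all rows were, were eas and bgm. The ethanolamine kinase gene eas (X, 16172360 to 16179651) stood at 28.1, 22.9, 9.30 and 9.40 FPKM, a ratio of -1.30 (interval -1.89 to -0.70). The acyl-CoA ligase gene bgm was at -1.23 (interval -2.21 to -0.25).

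Some groups stayed near equality. Ribosome biogenesis genes, whose median was 0.39 after SAM-S knockdown against GFP, had a median of -0.03 in double against SAM-S knockdown and none of 24 past 1.5-fold. The snoRNP methyltransferase gene Fib stood at 83.9 FPKM after GFP dsRNA, 137 after SAM-S knockdown, 88.0 in the samples labelled SIN3 knockdown and 160 in the double knockdown, so both groups with Sam-S dsRNA were the high ones. Histone methylation genes had a median of 0.02 and none of 26 past 1.5-fold. Of 10 SIN3 complex genes, Sap130 was at 0.65 (interval 0.04 to 1.26) and the deacetylase gene Rpd3 at -0.48 (interval -0.96 to 0.00). RNA interference genes had a median of -0.13, with AGO2, the Argonaute that carries siRNAs, at 165 and 114 FPKM, a ratio of -0.54 (interval -1.13 to 0.05). Ecdysone response genes had a median of -0.05; the hormone-induced transcription factor gene Eip74EF was at -0.79 (interval -1.51 to -0.07), and ImpE3 was past 2-fold with an interval from -5.20 to 7.63.

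**Figure D3:**
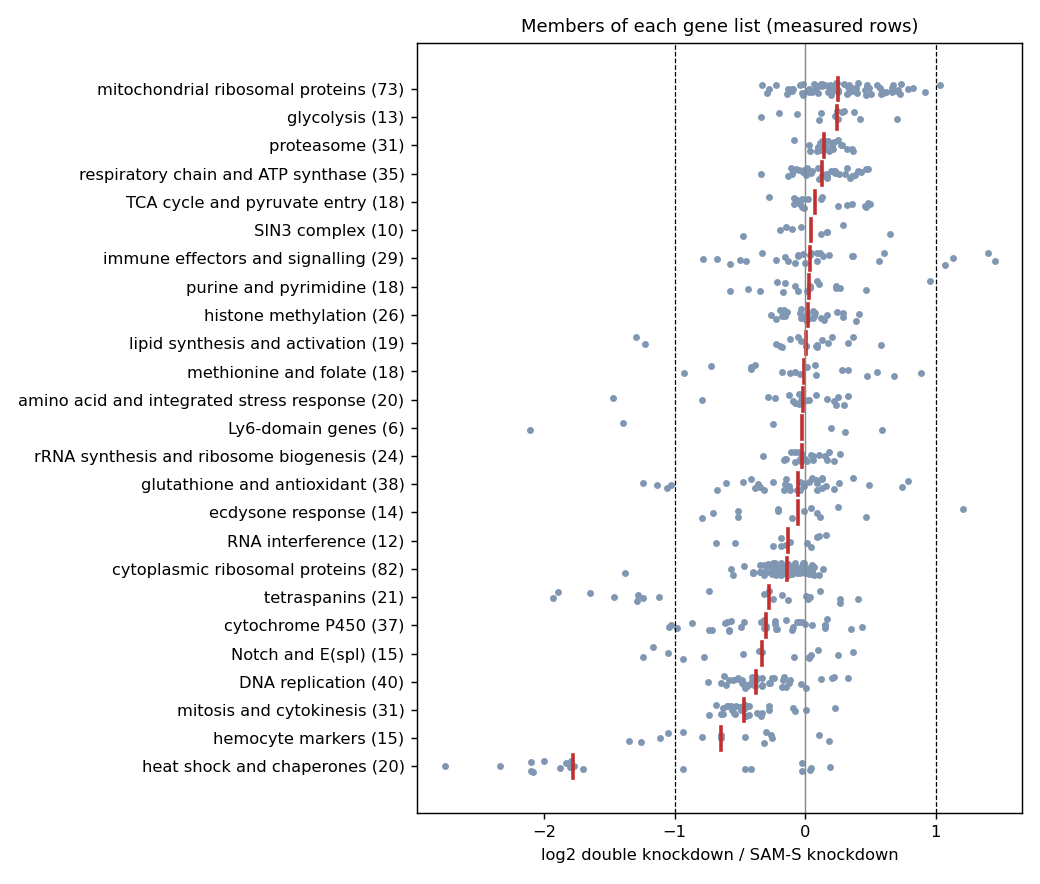
Log2 ratio of double to SAM-S knockdown (horizontal axis) for every measured row of each gene list with at least 6 rows; the number measured is in parentheses, red bars are list medians, dashed lines mark 2-fold and the grey line is the median of all rows. The heat shock list has the lowest median, -1.78, followed by hemocyte markers at -0.65, and the mitochondrial ribosomal protein list has the highest, 0.25.

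The same treatment without Sam-S dsRNA compares the samples labelled SIN3 knockdown with GFP, which shares no sample with the ratio described so far. Across 7813 rows with values in all 4 groups, the 2 log2 ratios had the same sign in 83.8% of rows, with Pearson's r = 0.81 and Spearman's rho = 0.84. These are descriptions across genes, which are not independent replicates. Of the 263 rows at least 2-fold lower with Sam-S dsRNA, 204 (77.6%) were also at least 2-fold lower without it, which is 53.8% of the 379 rows (4.85% of all) lower without it. Of the 70 rows at least 2-fold higher with Sam-S dsRNA, 34 (48.6%) were also higher without it, 31.2% of 109 (1.4% of all). Without the small RNA rows, 201 of 246 lower rows were past 2-fold in both, 34 more were between 1.5 and 2-fold, 8 were below 1.5-fold with the same sign and 3 had the opposite sign. The spread of the ratios was of like size, with a median absolute log2 ratio of 0.21 for double against SAM-S knockdown and 0.23 for the samples labelled SIN3 knockdown against GFP. SAM-S knockdown against GFP had 0.12.

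Heat shock genes departed from that likeness. The log2 ratio without Sam-S dsRNA was subtracted from that with it. This difference was at least 1 in size for 74 rows in the positive (0.947%) and 40 in the negative direction (0.512%). Without the small RNA rows the counts were 59 positive and 23 negative. The approximate 95% interval of the difference lay below 0 for 8 of 7464 rows (0.107%). Of those 8, 7 were on the heat shock list, which had 18 rows with such an interval. Of these 7, Hsp70Ba was at -1.55, Hsp70Bb at -1.12, Hsp68 at -1.05 and Hsp26 at -1.02. Hsp70Bc was at -0.98, Hsp27 at -0.90 and the row of Hsp22 and Hsp67Bb at -0.78. The other row was Thor, at -0.62 (interval -1.20 to -0.03). Hsp23, also on the list, was at -0.44 (interval -1.05 to 0.18). Among rows outside the small RNA genes that met the FPKM minimums in the 4 groups, CG43189 was lowest at -2.03, with no interval. For Hsp26 the log2 ratio was -1.08 without and -2.10 with Sam-S dsRNA, and the interval of the difference ran from -1.64 to -0.40.

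Rows at least 2-fold lower in the samples labelled SIN3 knockdown than in GFP were then taken as a set, small RNA rows left out. Their median log2 ratio to GFP was -1.19 for the heat shock rows and -1.36 for the others, so the others were lowered more. The difference was negative in all 8 heat shock rows of that set, with a median of -0.94. Among the 352 other rows it was negative in 54 (15.3%), with a median of 0.29; in any data, rows picked for a low value in 1 ratio tend to lie nearer 0 in the other. Among the 144 of these that reached 5 FPKM it was negative in 18 (12.5%). SAM-S knockdown against GFP had a median log2 ratio of -0.53 in the 8 heat shock rows and -0.21 in the 352 others.

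In the positive direction the interval lay above 0 for 4 rows (0.0536%), with lower limits from 0.0080 to 0.42. CG13386 (2L, 8399044 to 8399972) stood at 8.63 FPKM after GFP dsRNA, 6.76 after SAM-S knockdown, 1.02 in the samples labelled SIN3 knockdown and 2.87 in the double knockdown. Its log2 ratio was -3.07 without and -1.24 with Sam-S dsRNA, a difference of 1.83 (interval 0.42 to 3.24). The others were v(2)k05816 at 1.07, the non-coding CR41602 at 0.98 and Prosap at 0.60. The Ly6-domain gene CG9336, at 1.93 to 5.30 FPKM in the 4 groups, was at -1.45 without and -0.25 with Sam-S dsRNA, a difference of 1.20 whose interval, -0.33 to 2.73, includes 0, beside the neighbouring row of CG31675 and CG9338, which was at -2.15 and -2.11.

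**Figure D4:**
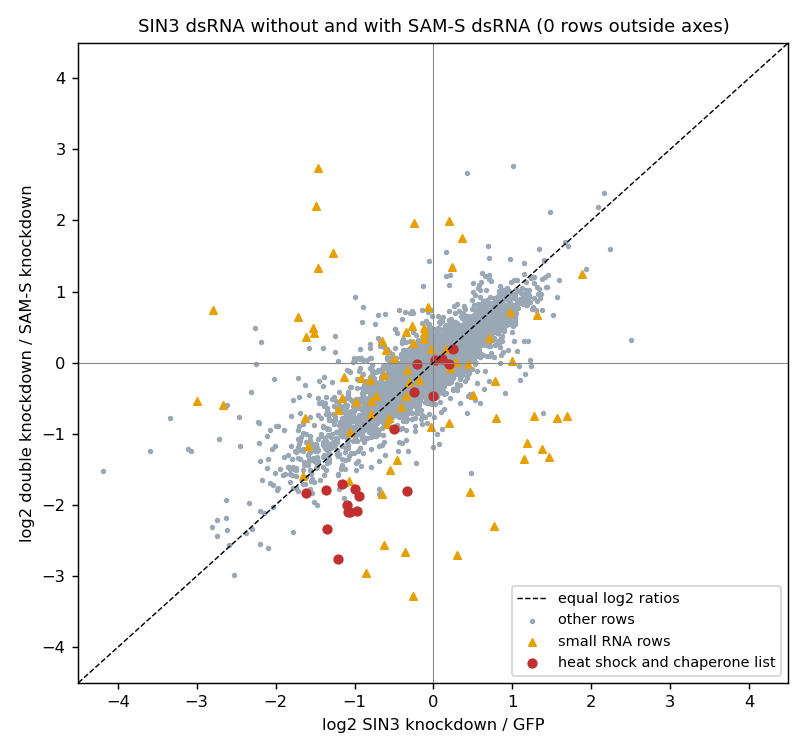
Each point is a row, with the log2 ratio of the samples labelled SIN3 knockdown to GFP on the horizontal axis and of double to SAM-S knockdown on the vertical axis; the dashed line marks equal ratios. Most rows follow the line (r = 0.81 over 7813 rows), the inducible heat shock rows lie below it, and the small RNA rows scatter across all quadrants.

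Small RNA rows behaved unlike the rest. Of 94 such rows, mostly snoRNA genes, 25 were at least 2-fold lower and 9 higher, where 3.47% and 0.899% of all rows were, and their log2 ratios with and without Sam-S dsRNA had r = -0.08 over 78 rows. Over the remaining 7735 rows r was 0.86. A further 20 rows of the comparison were listed at 0 in 1 or both groups, 19 of them small RNA rows, and no ratio is given for them.

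In the authors' deposited table of SAM-S knockdown against GFP, 7 rows (0.088%) had a q under 0.05 and were higher and 6 (0.0754%) were lower, and these showed several patterns when SIN3 dsRNA was added. Sesn, Hsp23, Hsp27 and the mitochondrial cytochrome P450 gene Cyp12a5, all lower after SAM-S knockdown, were lower still. Cyp12a5 stood at 45.4 FPKM after GFP dsRNA, 24.3 after SAM-S knockdown, 20.5 in the samples labelled SIN3 knockdown and 12.4 in the double knockdown, a ratio of -0.99 (interval -1.56 to -0.41). The non-coding gene CR43264, higher after SAM-S knockdown, was higher still, at 240, 462, 377 and 741 FPKM, a ratio of 0.67 (interval 0.11 to 1.24). The row that merges Eip71CD with Z600 and gdl stood at 55.0, 610, 84.5 and 848 FPKM, a ratio of 0.47 (interval -0.06 to 1.00). E(spl)mbeta-HLH, path and the RpL28 row were higher after SAM-S knockdown and nearer to the control in the double knockdown. Fib and the pyrimidine synthesis gene r were at 0.22 and -0.21, with intervals that include 0. The row of mir-4940 and nwk was equally low in both groups, at 0.064 and 0.062 FPKM.

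Some of the lower rows are neighbours in the genome. Measured rows were ordered by the start of their locus, with the small RNA rows left out. In that order, 53 of the 249 lower rows fell into 21 runs of adjacent rows. The longest run, of 7 rows, was the small heat shock cluster on chromosome 3L between 9364611 and 9378382, and the next, of 5 rows, was the Hsp70B cluster on 3R between 8291026 and 8337183. Another run of 4 held CG43125, CG43124, CG34436 and CG34437, and a run of 3 held the tetraspanins Tsp42Eg, the row of Tsp42Ej and Tsp42Ek, and Tsp42El. The only run of higher rows was Dro, AttA and AttB. Neighbouring copies of 1 family can share reads, so runs of a family are not independent rows.

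By chromosome, the X and the small chromosome 4 had negative medians, small RNA rows left out. The median log2 ratio of double to SAM-S knockdown was -0.11 over 1312 rows of the X and -0.26 over 74 rows of chromosome 4, with 65.2% and 78.4% of rows negative. On the arms 2L, 2R, 3L and 3R the medians lay between 0.0086 and 0.031, with 45.5% to 48.7% of rows negative. The samples labelled SIN3 knockdown against GFP had the same order, with -0.15 on the X and -0.32 on chromosome 4. SAM-S knockdown against GFP had -0.02 on the X and -0.10 on chromosome 4. In fly males the dosage compensation complex raises transcription of the X, and much of chromosome 4 is packed as heterochromatin. The 46 rows on heterochromatic and unplaced scaffolds had a median of -0.39, with 84.8% negative.

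**Figure D5:**
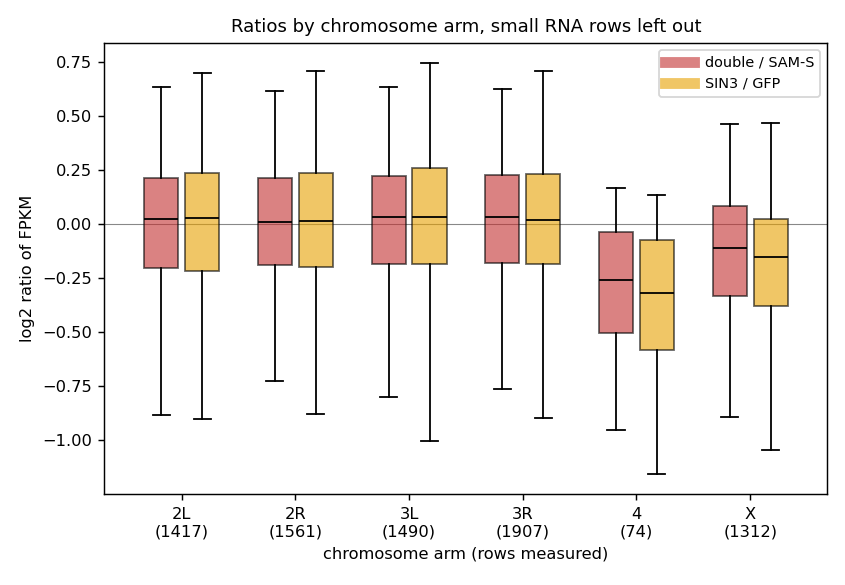
Boxes show the median and quartiles, and whiskers the 5th and 95th percentiles, of the log2 ratios of double to SAM-S knockdown (red) and of samples labelled SIN3 knockdown to GFP (yellow) for each chromosome arm, with the number of rows in parentheses. The medians of the 4 large autosome arms lie near 0, while those of the X (-0.11) and chromosome 4 (-0.26) lie below it.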

How the data were processed

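RNA-seq of S2 cells was compared between the SAM-S and double knockdown groups. Per the labels, the authors combined replicates 1, 2 and 3; bcl2fastq, Cuffdiff and build dm3 are named in the submitters' processing notes. Versions, aligner, annotation and filters were not given in the sources used here. The deposited FPKM values are 1 per gene and group, so depth and replicate spread are unknown. The deposited score is Cuffdiff's statistic, and the deposited p-value and q-value belong to each knockdown against GFP. Coordinates are those of each row's deposited locus on dm3, with 1 added to each start. Some rows share a locus, so a span can be wider than the gene it is printed for.

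Rows were joined by locus and gene, kept where the authors' status was OK in both tables, and scaled by the median ratio of the GFP columns, 1.006. Ratios were log2 of FPKM, without a pseudocount. A table's standard error was its log2 fold change over the statistic times 1.74 (SAM-S) or 1.73 (double), where this tracked p within 20% or 0.1; the squared errors were added. Overlapping or antisense genes cannot be told apart in these tables.

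Named genes were Sam-S, Sin3A, the 15 largest ratios per direction with 5 FPKM or more in one group and 0.5 or more in the other, up to 2 rows past 2-fold per list and direction, the 8 largest differences per sign between the ratios with and without Sam-S dsRNA, and the 3 most abundant members of each list; others were named after their values were seen. The members, the 29 lists and the comparisons were chosen with earlier results of these data known. Python 3.11.15, pandas 2.3.3 and SciPy 1.17.1 were used, and the steps were tested on simulated data.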

Additional observations from a re-analysis of the deposited data

Results flagged for a closer look

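In 8 small RNA rows the ratio of double to SAM-S knockdown and that of the samples labelled SIN3 knockdown to GFP were past 2-fold in opposite directions. Each group has 1 pooled value, so the difference was not tested, and no interval could be given. In the authors' deposited Cuffdiff tests against GFP, none of the 8 rows had a q under 0.05 in any knockdown group. In 4 of them the log2 ratio was lower with Sam-S dsRNA, by a difference of -2.78 for snoRNA:Psi28S-1192c, -2.60 for snoRNA:Psi18S-1086, -2.51 for snoRNA:U14:30Eb and -2.32 for snoRNA:Dek-a. In the other 4 it was higher, by 2.79 for snoRNA:Me28S-G3113b, 2.81 for snoRNA:Psi18S-640b, 3.69 for snoRNA:Psi28S-3186 and 4.20 for snoRNA:Psi18S-1377e. Their levels ranged widely: snoRNA:U14:30Eb stood at 772 FPKM after GFP dsRNA, 1976 after SAM-S knockdown, 1714 in the samples labelled SIN3 knockdown and 777 in the double knockdown. In snoRNA:Psi28S-3186 the same groups stood at 6.95, 2.00, 2.47 and 9.29 FPKM.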

How the results depend on the processing

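The counts of rows at least 2-fold apart depended on the threshold and on low values. Of the main 71 higher and 274 lower rows, 39 and 124 were past 2-fold with 1 FPKM added, 46 and 136 at 5 FPKM or more in the higher group, and 24 and 148 with an interval excluding 0. The counts were 447 and 757 at 1.5-fold, and 372 and 896 over all joined rows whatever the authors' status. With 1 FPKM added, list medians were -1.24 for heat shock, -0.44 for hemocyte, -0.20 for Notch and -0.23 for fat body genes. The fat body list had 1 measured row, Rfabg. With 1 FPKM added, lower counts were 1 for Notch, 2 for glutathione, 0 for cytochrome P450, 1 for lipid and 3 for tetraspanin genes, and higher counts were 2 for immune and 0 for ecdysone genes. In single-gene rows, the ribosomal protein list had 0 lower, the Ly6-domain list had a median of 0.20 with 1 lower, and the ecdysone list had a median of -0.16. The likeness to SIN3 dsRNA alone had 20 rows higher and 84 lower in both with 1 FPKM added, and 99 lower in both at 5 FPKM or more. Without small RNA rows, an alternative chosen after seeing the data, 0 rows were past 2-fold in opposite directions, and 23 had a difference of effects of at least -1 in size. The other 130 summary values stayed near the main value. Besides the Ly6-domain median in single-gene rows, 3 medians near 0 changed sign: 0.0083 for Ly6-domain genes with 1 FPKM added, and 0.015 for methionine and -0.032 for SIN3 complex genes in single-gene rows. Of named genes, 318 values kept their side of 2-fold and 9 did not, all with their sign. No paired analysis was possible because the tables hold 1 pooled value per group, and for the same reason no replicate could be left out. Unknown depth limits every low row.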
